A study of Mus musculus with 111 samples.

Results

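The light-phase genes of the control mice are 147 genes whose counted reads stood higher by day than by night in the tuberomammillary nucleus (TMN), the small posterior hypothalamic region that holds the brain's histamine-making neurons. They were chosen from 54087 deposited gene names, of which 3515 passed a floor of 20 on the mean CPM of the control libraries (counts of a gene for every 1000000 reads in gene rows) and a filter on clone-based and mitochondrial names. Each of the 3515 was ranked by a t statistic with unequal variances on log2(CPM + 1), comparing zeitgeber times (ZT) 4 and 8 with ZT16 and ZT20, where ZT0 is lights on. The first 150 were taken, and 3 of them (Nr1d1, Tbcd and Elmo3) were left out by name. The values that chose the members are therefore the light minus dark differences in the control libraries, and these are described below without a test.

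The libraries came from young adult C57BL/6 mice of both sexes (C57BL/6J in the study's methods) that had received an adeno-associated virus in the TMN. Each mouse got 1 of 3 viruses: GFP with no histone, the unmutated histone H3.3, or its Q5A form, in which the fifth residue is alanine and not glutamine. The Q5A histone cannot carry a monoamine at that position and acts as a dominant negative, and all 3 viruses also carried GFP, which guided the dissection, so that every group had surgery and a virus and no group was untreated. Poly(A) RNA was sequenced from tissue taken every 4 h, and 110 libraries were used, 32 with GFP, 39 with H3.3 and 39 with Q5A. GFP and H3.3 together are called controls and gave 24 libraries in the light hours (ZT4 and ZT8) and 25 in the dark hours (ZT16 and ZT20), and Q5A gave 13 and 13. Each ZT held 4 to 6 GFP, 5 to 8 H3.3 and 6 to 7 Q5A libraries. The tissue is a dissected region of mixed cell types.

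In the mammalian clock, CLOCK and BMAL1 bind E-boxes in promoters and switch on their own repressors, the period and cryptochrome proteins, so that transcript levels rise and fall over the day. Mice rest in the light and are active in the dark, and histamine neurons fire mainly during waking. Transcripts can also follow the day through feeding, temperature, hormones and the activity of neurons, so a gene that is high by day need not be a direct clock target.

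Gene rows held 673306 to 3375352 reads per library (median 1474422). They were 3.49% to 5.63% of the uniquely placed reads, and the stranded counting option kept reads of 1 orientation only. In libraries of the kit used the first read runs antisense to the transcript, whereas the option takes it as sense, so the setting may be reversed and a row may hold reads of transcripts from the strand opposite to the gene it names. Gene names below stand for such rows, and what their proteins do is background. In 8 libraries this share was highest, at 4.56% to 5.63%, and these libraries stood low in the members: 0 of the 8 lay above the median of their own group, against 51 of the 102 others. They were of all 3 viruses and of ZT4, ZT12, ZT16 and ZT20, and several results on the members are given with and without them. The defining histamine neuron gene Hdc had a median of 4 reads per library, whereas Slc18a2, the vesicular monoamine transporter, had 90. RNA of the whole dissected tissue was measured, so fewer cells of a type and less RNA per cell cannot be told apart.

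The promoters of the members were read first for the clock's binding motif. RefSeq windows of 300 bases around the transcription start (build GRCm38.p6) were matched for 115 of the 147 members, and the E-box CACGTG, which reads the same on both strands, was present in 14 of them (12.2%). The same letters were in 11.1% of the windows of all genes above the CPM floor, in 11.02% of those of the 149 genes that stood at the dark end of the same ranking, and in 8.09% of all genes in the table. The D-box TTATGTAA was in 0 of the 115 windows (0.481% above the CPM floor), the ROR element core TAGGTCA in 4 (3.48%, against 2.03%) and the cAMP response element TGACGTCA in 2 (1.74%, against 4.11%), each searched on both strands. A D-box is bound by Dbp and its relatives, and the ROR element by the REV-ERB and ROR receptors. E-box letters were thus about as frequent among the members as among all genes above the CPM floor. These windows belong to the named genes, whose rows may hold reads of the opposite strand.

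Promoters of 5 members are shown as the 250 bases that end just before the RefSeq start. Spsb3 led the ranking and has a pair of E-boxes 21 and 13 bases before its start, Mcoln1 has a pair 71 and 45 bases before its own, and Tspan4, with a single E-box 51 bases before the start, is the member that also belonged to the list of known E-box output genes used here. Tlr9 and Mpeg1 gave the smallest p-values in Q5A and hold none of the 4 motifs. Capitals mark the E-boxes.
Spsb3, chr17:24885732-24885981, plus strand: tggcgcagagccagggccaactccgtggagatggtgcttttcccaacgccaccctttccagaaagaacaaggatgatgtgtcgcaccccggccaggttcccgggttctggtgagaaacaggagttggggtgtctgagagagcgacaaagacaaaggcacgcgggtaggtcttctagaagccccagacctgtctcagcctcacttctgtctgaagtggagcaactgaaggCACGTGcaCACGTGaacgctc
Mcoln1, chr8:3500269-3500518, plus strand: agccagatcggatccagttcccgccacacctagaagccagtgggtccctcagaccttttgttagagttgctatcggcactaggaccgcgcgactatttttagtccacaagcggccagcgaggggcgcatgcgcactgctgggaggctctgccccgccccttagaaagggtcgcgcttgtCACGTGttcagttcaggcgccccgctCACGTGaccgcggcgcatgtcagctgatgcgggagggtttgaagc
Tspan4, chr7:141476130-141476379, plus strand: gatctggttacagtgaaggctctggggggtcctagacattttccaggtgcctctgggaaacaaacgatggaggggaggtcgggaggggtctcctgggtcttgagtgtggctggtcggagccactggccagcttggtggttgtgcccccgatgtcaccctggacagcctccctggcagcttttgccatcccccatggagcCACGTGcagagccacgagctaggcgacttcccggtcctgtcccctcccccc
Tlr9, chr9:106222348-106222597, plus strand: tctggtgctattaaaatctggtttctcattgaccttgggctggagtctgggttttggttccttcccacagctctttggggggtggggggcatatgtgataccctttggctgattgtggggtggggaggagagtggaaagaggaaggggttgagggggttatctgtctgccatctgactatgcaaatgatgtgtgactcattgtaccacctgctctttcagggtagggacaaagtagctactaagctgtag
Mpeg1, chr19:12460520-12460769, plus strand: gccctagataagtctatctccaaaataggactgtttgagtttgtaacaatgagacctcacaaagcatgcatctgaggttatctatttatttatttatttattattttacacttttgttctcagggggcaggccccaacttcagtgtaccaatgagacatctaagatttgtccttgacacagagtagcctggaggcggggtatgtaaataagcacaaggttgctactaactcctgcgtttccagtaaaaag

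In control libraries the members peaked late in the light phase. The group mean was highest at ZT8 for 110 of the 147 genes, at ZT4 for 32, at ZT0 for 3 and at ZT12 for 2, and it was lowest at ZT20 for 93, at ZT16 for 37, at ZT0 for 15 and at ZT12 for 2. Of all 3515 genes, 13.9% were highest at ZT8 and 10.4% at ZT4, and 17.3% were lowest at ZT20 and 13.8% at ZT16. The members were ranked on ZT4 and ZT8 against ZT16 and ZT20 in these same libraries. Peaks and troughs at those hours thus largely follow from the choice of genes. As a single number per library, the mean log2(CPM + 1) of the members was set against that of all 3515 genes. This difference was 0.696 ± 0.171 at ZT0 (SD, n = 9), 0.868 ± 0.238 at ZT4 (n = 11), 1.00 ± 0.186 at ZT8 (n = 13), 0.694 ± 0.266 at ZT12 (n = 13), 0.541 ± 0.185 at ZT16 (n = 14) and 0.413 ± 0.358 at ZT20 (n = 11). In the pooled controls ZT0 and ZT12, whose libraries did not rank the genes, lay between the light and the dark hours. They were close to each other only in the pool. GFP had means of 0.787 at ZT0 and 0.526 at ZT12, and H3.3 had 0.623 and 0.839.

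**Figure D1:**
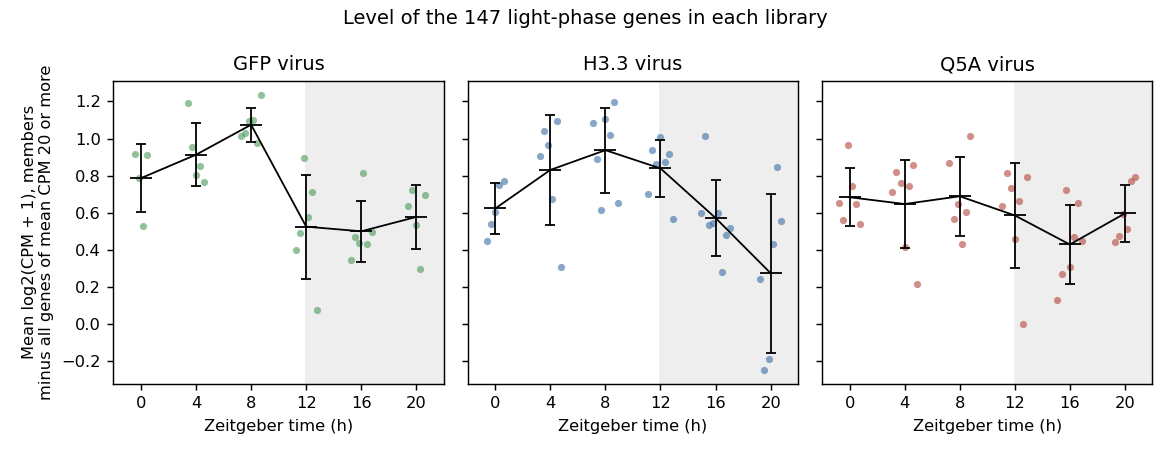
Mean log2(CPM + 1) of the 147 members minus that of all 3515 genes of mean CPM 20 or more (vertical axis) by zeitgeber time in hours, for GFP, H3.3 and Q5A libraries, with 1 point per library, bars of mean ± SD and the dark hours shaded. Pooled control means fell from 1.00 at ZT8 to 0.413 at ZT20, where H3.3 cohort 1 replicates 2 and 3 lay at -0.246 and -0.185. The Q5A means ran from 0.689 at ZT8 to 0.430 at ZT16.

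The differences that chose the genes were modest in size. Light minus dark on the log2(CPM + 1) scale had a median of 0.34 over the members, from 0.14 to 1.01, against -0.08 over all 3515 genes. In the edgeR fit, which scales the libraries again (trimmed mean of M-values), the median was 0.41 and 139 of the members had an adjusted p under 0.05, where 6.87% of the 13254 genes tested were called higher and 7.24% lower, but these calls rest on the contrast of the rule. Both control viruses took part in it: the difference was above 0 for all 147 genes in GFP alone (median 0.40; 44.9% of all genes) and in H3.3 alone (median 0.40; 46.9%). At the edge of the list, t was 3.26 for Khnyn, 3.26 for Sds and 3.25 for Ict1os, and just outside it was 3.24 for N4bp2, 3.24 for Mtf1 and 3.23 for WI1-2788A17.1. The edge is not a step in the data. Without the 8 libraries of highest gene-row share the median difference was 0.37 and the rule kept 115 of the 147 genes.

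Other gene groups also differed between the same control hours. The summed CPM of 10 histamine neuron markers ran from 55.4 to 110.8 with a median of 73.8 in the light libraries and from 71.5 to 271 with a median of 112 in the dark ones. Of the 7 that were tested, 3 were called lower by day (edgeR, adjusted p under 0.05). The 29 heat-shock and chaperone genes had medians of 1208 and 1673, the 49 nuclear genes of oxidative phosphorylation 1189 and 1436, and the 15 oligodendrocyte markers 1609 and 2300. Of these lists, 10 of 27, 12 of 48 and 4 of 15 tested genes were called lower by day, and 2 of the 48 higher. The 12 astrocyte markers had medians of 439 and 643 with 6 of 12 called lower, and the 40 genes of the proteasome and ubiquitin had 715 and 968 with 14 of 37. Of the 28 lists with a tested gene, 25 had a median difference below 0 in controls. The 12 microglia markers had medians of 295 and 290. No member is in any of the lists named here, and their part in the members' difference was not tested. The list values are given only with the 8 libraries of highest gene-row share included. Over all genes, 959 of 13254 were called lower by day in controls, and 437 of 12769 without those libraries (edgeR, adjusted p under 0.05).

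The 8 genes that led the ranking have unlike functions. Spsb3 (t of 7.84), a substrate adaptor of a ubiquitin ligase, ran from 123 to 199 CPM with a median of 174 in the 24 control light libraries and from 93.9 to 176 with a median of 122 in the 25 dark ones, so that 10 light libraries lay above the highest dark one. Card14, a scaffold protein of NF-κB signalling, had medians of 148 and 120 CPM. Oxct2b, a testis form of the ketone body enzyme, had 27.9 and 15.2 CPM. Gapdhs, the sperm form of glyceraldehyde phosphate dehydrogenase, Smarcd3, a subunit of SWI/SNF chromatin remodellers, Gucy2e, a guanylate cyclase of photoreceptors, Elmsan1, a partner of histone deacetylases, and Kif7, a kinesin of the Hedgehog pathway, completed the 8. Exons of Eme2 lie opposite 62.3% of the exonic length of Spsb3, and those of Chpf2 opposite 48.2% of Smarcd3. The light minus dark differences of the 8 were 0.53 for Spsb3, 0.46 for Card14, 0.41 for Gapdhs, 0.44 for Smarcd3, 1.02 for Oxct2b, 0.90 for Gucy2e, 0.71 for Elmsan1 and 0.68 for Kif7, all log2 values from the edgeR fit.

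The Q5A libraries took no part in the choice of genes, and they give the test of whether the members also stood higher by day there. Of the 147 members, 123 (83.7%) had a light minus dark difference above 0, against 54.2% of all 13254 genes tested and 52.9% of the 3515 genes above the CPM floor. The median difference was 0.11 over the members and 0.03 over all genes tested, and for the 149 genes at the dark end of the ranking it was -0.03, with 65 above 0. No member passed edgeR's quasi-likelihood test at an adjusted p under 0.05 in either direction, where 0.0226% of all genes tested were called higher and 0.189% lower. At an unadjusted p under 0.05, 27 members (18.4%) were higher by day and 0 lower, against 5.23% and 6.39% of all genes tested and 6.91% and 7.8% of the genes above the CPM floor. The members thus lay mostly on the day side in Q5A, by an amount that was small for most of them beside the median standard error of 0.14.

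Markers of some other cell types had larger fitted differences between the same Q5A hours. The 15 oligodendrocyte markers had a median light minus dark difference of -0.62, with 2 above 0 and 7 at an unadjusted p under 0.05. Their summed CPM ran from 1165 to 3334 (median 1679) by day and from 1375 to 6375 (median 2042) by night. The 7 striatal markers tested had a median of -0.90, with 0 above 0 and 4 at an unadjusted p under 0.05, and the sum over 9 such markers ran from 54.8 to 97.0 CPM (median 73.7) by day and from 46.4 to 1037 (median 75.7) by night. The day and night medians of this sum were thus close, while the highest dark value was far above them. How far the fitted striatal differences rest on single dark libraries was not tested. None of these genes was called (edgeR, adjusted p under 0.05), and their part in the members' shift was not tested.

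The count of calls depended on the tool and on the libraries. DESeq2 called 3 members higher by day (Tlr9, Mpeg1 and Zfp846), where it called 0.0905% of all genes. Cohort 1 alone, the largest of the 3 cohorts of mice that the labels name, gave 17 members, with 2.06% of its 12640 genes called and a median member difference of 0.14. Without the 8 libraries of highest gene-row share 7 members were called (Tlr9, Fam171a2, Zfp846, Alas1, Acer3, Son and Mpeg1), where 0.258% of genes were called, and 129 members were above 0 with a median of 0.14. Q5A libraries fitted alone gave 4 members, as did cohort as a covariate (0.128% of genes in each). With no filter on low counts, Tlr9 alone was called, where 0.0111% of genes were. Without the 3 libraries of the highest count in a single clone-named row 0 members were called, 0.0222% of genes were, and 23 members were higher at an unadjusted p under 0.05.

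**Figure D2:**
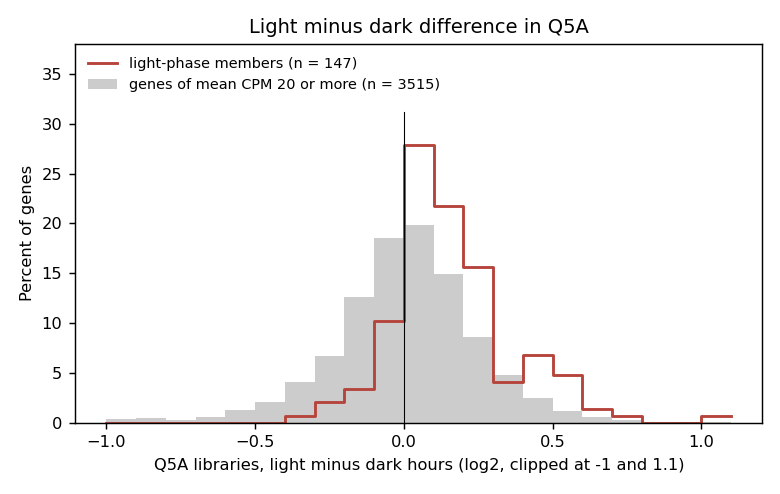
Percent of genes (vertical axis) by light minus dark difference in the Q5A libraries (horizontal axis, log2, bins of 0.1 with the ends clipped), for the 147 members as a red line and for the 3515 genes of mean CPM 20 or more as grey bars. The members are shifted to the right, with 83.7% above 0 against 52.9%.

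Over the day the members' mean level relative to all genes was also followed in Q5A. It was 0.684 ± 0.155 at ZT0 (SD, n = 6), 0.647 ± 0.238 at ZT4 (n = 7), 0.689 ± 0.212 at ZT8 (n = 6), 0.586 ± 0.284 at ZT12 (n = 7), 0.430 ± 0.210 at ZT16 (n = 7) and 0.597 ± 0.152 at ZT20 (n = 6). Light libraries had 0.667 ± 0.218 and dark libraries 0.507 ± 0.198 in Q5A, and 0.940 ± 0.217 and 0.485 ± 0.276 in controls. The arms were not tested against each other on this contrast, since the genes were picked for a large difference in the controls. The group mean of single genes in Q5A was highest at ZT8 for 59 members, at ZT4 for 40, at ZT0 for 16, at ZT12 for 16, at ZT20 for 12 and at ZT16 for 4. Of all 3515 genes, 22.4% were highest at ZT8 and 20.9% at ZT4 in Q5A. Light and dark libraries overlapped for every member in both arms, and the median CPM was higher in the light libraries for 133 of the 147 in Q5A. Overlap and higher medians were not counted over all genes.

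**Figure D3:**
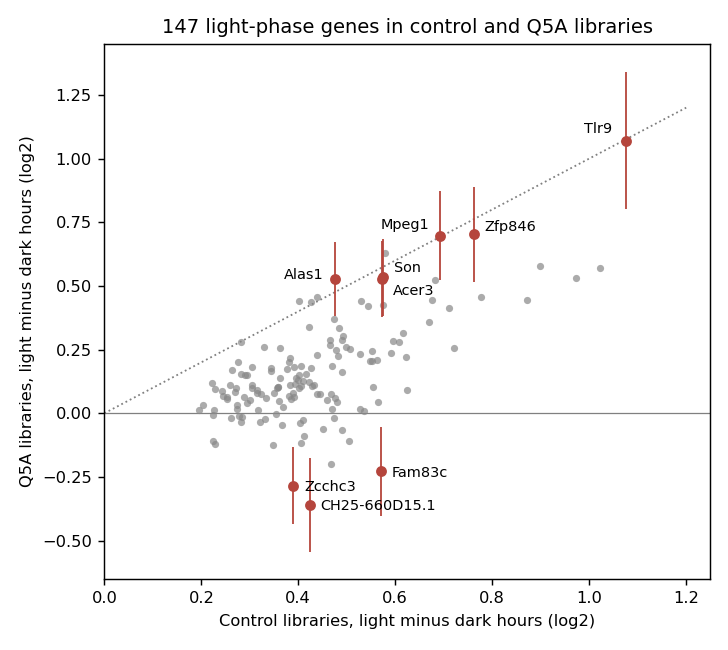
Light minus dark difference (log2, edgeR) of the 147 members in control libraries (horizontal axis) and in Q5A libraries (vertical axis), with the dotted line at equal values and, in red with SE bars, the members of smallest p and of lowest difference in Q5A. All members lie above 0 in controls by the choice of genes, and 123 lie above 0 in Q5A.

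The smallest p-values in Q5A belonged to a pair of innate immune genes. Mpeg1 (chr19:12460779-12465283, plus strand) encodes macrophage perforin-2, a pore-forming protein of phagocytes. Its Q5A light libraries ran from 16.6 to 38.9 CPM with a median of 30.3, and its dark ones from 10.8 to 25.5 with a median of 19.6. Of the 13 light libraries 11 lay above the highest dark one. The log2 difference was 0.70 ± 0.17 (SE; unadjusted p = 0.000116), with an adjusted p of 0.0513 in edgeR and 0.0256 in DESeq2 and a range of 0.0256 to 0.245 over the settings tried. The 24 control light libraries ran from 19.0 to 42.6 CPM with a median of 31.0 and the 25 dark ones from 10.8 to 43.1 with a median of 19.7, a difference of 0.69.

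Tlr9 (chr9:106222598-106226883, plus strand) encodes the endosomal receptor for unmethylated CpG DNA. In Q5A it ran from 16.7 to 57.4 CPM with a median of 33.2 by day and from 5.01 to 29.1 with a median of 13.8 by night. Of the 13 light libraries 10 lay above the highest dark one. The log2 difference was 1.07 ± 0.27 (SE), with an adjusted p of 0.0513 in edgeR, 0.0249 in DESeq2 and 0.00135 to 0.294 over the settings tried. Controls had a median of 41.4 CPM by day and 19.98 by night, a difference of 1.08, and their light and dark ranges overlapped (1.47 to 62.3 and 4.46 to 46.5). Neither gene has an exon of another annotated gene on the opposite strand. The gene that faces Mpeg1, Dtx4, lies 1054 bases away, and reads from beyond annotated ends were not examined.

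Alas1, the first enzyme of heme synthesis, is the neighbour of Tlr9 (chr9:106233455-106248654, minus strand), and the ends of both genes face each other across 6571 bases. It ran from 24.7 to 56.2 CPM (median 34.0) by day and from 15.7 to 34.2 (median 23.3) by night in Q5A. The difference was 0.53 ± 0.14 (SE; adjusted p = 0.0788, edgeR), beside 0.48 in controls, and 6 of the 13 light libraries were above the highest dark one. Both genes thus had the higher median by day in both arms. Acer3, an alkaline ceramidase of sphingolipid breakdown, ran from 36.8 to 65.5 CPM (median 55.3) by day and from 24.9 to 43.8 (median 37.3) by night. Its difference was 0.53 ± 0.15 (SE; adjusted p = 0.0881, edgeR), and 11 of 13 light libraries lay above the highest dark one.

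Zfp846, a zinc-finger protein, had Q5A values of 21.3 to 51.5 CPM (median 38.6) by day and 16.7 to 37.1 (median 21.1) by night, a difference of 0.70 ± 0.19 (SE; adjusted p = 0.0698 in edgeR, 0.0464 in DESeq2 and 0.000564 to 0.35 over the settings tried). Son, a scaffold of nuclear speckles that is needed for splicing, ran from 96.8 to 341 CPM (median 225) by day and from 108 to 185 (median 147) by night, a difference of 0.53 ± 0.15 (SE; adjusted p = 0.0912, edgeR). For both, 9 of the 13 light libraries lay above the highest dark one. Zfp846 and Acer3 have no exon of another gene opposite, and for Alas1 and Son such exons cover 7.53% and 0.691% of the exonic length. In controls the differences were 0.76 for Zfp846, 0.57 for Acer3 and 0.58 for Son. All 6 genes were named for their small p in Q5A, so their likeness to the controls is a description of these 6.

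**Figure D4:**
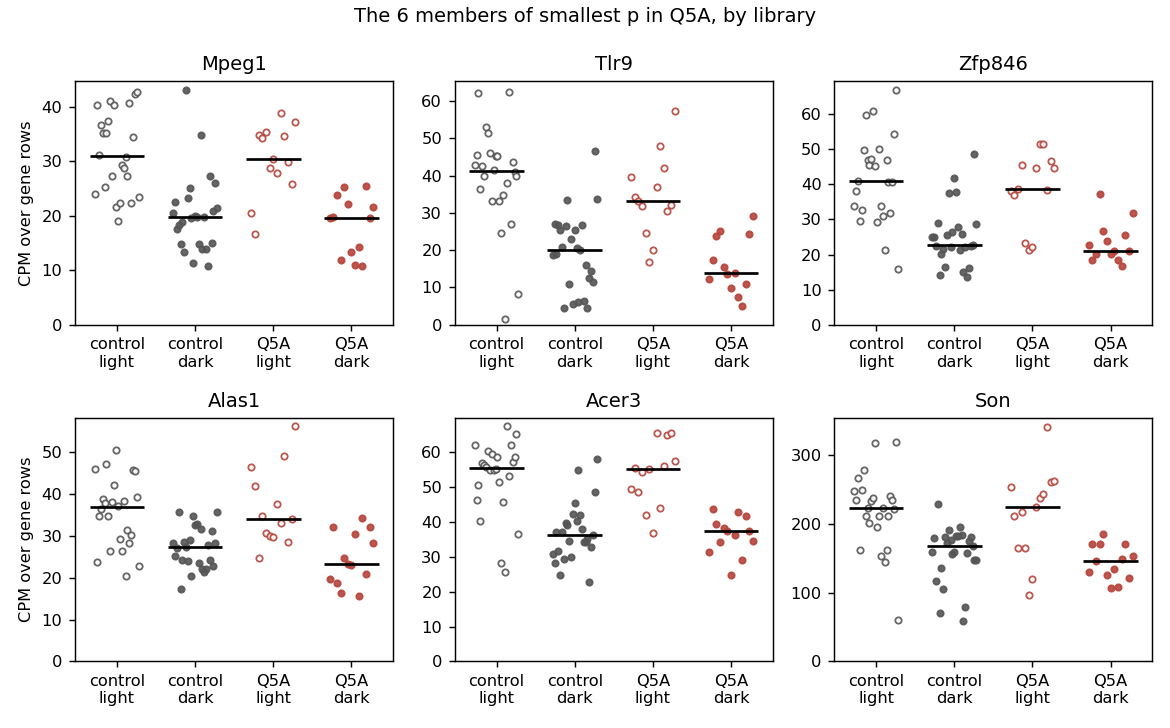
CPM over gene rows (vertical axis) of the 6 members of smallest p in Q5A, in control and Q5A libraries of the light and dark hours, with 1 point per library (open for light, filled for dark) and a bar at the median. Q5A light libraries stand mostly above the dark ones, with 11 of 13 above the highest dark library for Mpeg1 and Acer3 and 6 of 13 for Alas1.

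At the other end, the 3 lowest members in Q5A had values on the night side. CH25-660D15.1, a clone-based name with no position here, had -0.36 ± 0.19 (SE), with 1 dark library at 471 CPM where the medians were 123 by day and 128 by night. Zcchc3, a nucleic acid binding protein of innate sensing, had -0.28 ± 0.15 and Fam83c -0.23 ± 0.18. The leading gene of the ranking, Spsb3, had 0.02 ± 0.14 in Q5A: it ran from 105 to 207 CPM (median 133) by day and from 88.7 to 212 (median 124) by night, with 0 of the 13 light libraries above the highest dark one. Of the other leaders, Kif7 had 0.52 ± 0.17, Gucy2e 0.58 ± 0.21, Oxct2b 0.57 ± 0.22, Elmsan1 0.41 ± 0.14, Card14 0.29 ± 0.13, Smarcd3 0.23 ± 0.12 and Gapdhs 0.12 ± 0.11. The order of the 8 in the controls was thus not their order in Q5A, and none of them passed the adjusted threshold there.

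The members were also grouped by what their proteins are known to do into 9 groups, with 67 of the 147 in none. The groups were drawn up after the names were seen, so their counts describe the list and carry no test. Over all genes tested 54.2% were above 0 in Q5A and 5.23% higher at an unadjusted p under 0.05, and the counts of the groups were not tested against these shares. Chromatin and transcription was the largest, with 15 genes. It holds Med1, a subunit of Mediator, Hexim1, an inhibitor of the elongation factor P-TEFb, Dot1l, the histone H3 lysine 79 methyltransferase, Carm1, an arginine methyltransferase, Nasp, a chaperone of histones H3 and H4, and Jade1, a scaffold of a histone acetyltransferase complex. In Q5A 14 of the 15 were above 0 (median 0.23, against 0.44 in controls) and 3 had an unadjusted p under 0.05, namely Elmsan1, Med1 (0.29 ± 0.13) and Zfp846. Hexim1 had 0.26 ± 0.14, Jade1 0.30 ± 0.16, Nasp 0.25 ± 0.15, Dot1l 0.18 ± 0.12 and Carm1 0.11 ± 0.11. The rest of the group lay within 2 standard errors of 0.

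Immune genes made a group of 9, all above 0 in Q5A with a median of 0.28 (0.59 in controls). Beside Mpeg1 and Tlr9 it holds Sh2b3, an adaptor that dampens cytokine signalling (0.45 ± 0.19 in Q5A, 0.87 in controls), Card14, the antigen-presenting relative H2-T22 (0.28 ± 0.14), Traf3ip2, an adaptor of the interleukin-17 receptor (0.24 ± 0.16), Plek, the pleckstrin of blood cells (0.10 ± 0.12), Tnfrsf18 (0.24 ± 0.17) and the complement gene C8g (0.01 ± 0.21). The summed CPM of 12 microglia markers, beside this, had medians of 269 by day and 293 by night in Q5A. The median sum of microglia markers was thus not higher by day in the Q5A libraries in which Mpeg1 and Tlr9 were.

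The 6 enzymes of heme and lipid metabolism were all above 0 in Q5A (median 0.34, against 0.48 in controls). Next to Alas1 and Acer3 stands Cers1, the ceramide synthase of neurons, at 0.43 ± 0.17, and then Acsl5, a fatty acid activating enzyme (0.25 ± 0.14), Pi4kb, a phosphatidylinositol kinase (0.16 ± 0.12), and Smpd2, a neutral sphingomyelinase (0.13 ± 0.14). This was the highest median of the 9 groups.

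Lysosome and membrane traffic had 11 members with a median of 0.09 in Q5A (0.31 in controls). Atg9b, an autophagy protein of membrane delivery, had 0.46 ± 0.16 and Vps4a, the ATPase that takes ESCRT complexes apart, 0.28 ± 0.10. The lysosomal channels Mcoln1 (0.09 ± 0.12) and Tmem175 (-0.04 ± 0.11) and the lysosomal hydrolases Idua (-0.02 ± 0.11) and Dnase2a (0.17 ± 0.13) lay near 0. Of the 11, 8 were above 0 and 2 had an unadjusted p under 0.05.

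The 9 receptors, channels and synaptic proteins were all above 0 in Q5A, with a median of 0.12 (0.43 in controls). Icam5, a cell adhesion protein of telencephalic neurons, had 0.34 ± 0.15, Kcnk12, a silent potassium channel subunit, 0.31 ± 0.21, Chrnb1, the muscle nicotinic receptor subunit, 0.22 ± 0.20, the proton channel Hvcn1 0.18 ± 0.14, and Chrnb2, the main nicotinic beta subunit of brain, 0.12 ± 0.11. Only Icam5 had an unadjusted p under 0.05 (0.03). The 8 genes of RNA processing and the ribosome were above 0 as well, with a median of 0.09, and Son was the one with an unadjusted p under 0.05. Rps28 and Rps25, proteins of the small ribosomal subunit, had 0.22 ± 0.15 and 0.08 ± 0.11.

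Genes best known from other tissues formed 2 groups of the list. The 5 muscle genes, among them the giant sarcomere protein Ttn (20.9 CPM in controls) and the cardiac antisense RNA Mhrt, had a median of 0.23 in Q5A, and Ttn had 0.53 ± 0.23. The 9 genes of testis, skin, retina, taste, blood and fat had a median of 0.27 and were all above 0. Itga2b, the platelet integrin, had 0.44 ± 0.19, and Adrb3, the adrenergic receptor of fat, 0.26 ± 0.19, beside 0.68 and 0.72 in controls. Their mean level in controls ran from 20.9 CPM for Oxct2b to 205 for Gapdhs.

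The rule named the clock genes Nr1d1, Clock, Per1 and Dbp for leaving out, but of these only Nr1d1 was among the first 150. In controls the light minus dark difference was 0.22 for Clock, -0.60 for Per1 and 0.08 for Dbp. Nr1d1, the REV-ERB alpha repressor, had a difference of 0.37 in controls and 0.02 ± 0.13 (SE) in Q5A. Of 17 core clock genes in a list drawn up here, 14 were tested, and in Q5A none of them was called (edgeR, adjusted p under 0.05) and 0 had an unadjusted p under 0.05. Of 11 known E-box output genes 10 were tested, and Tspan4, a tetraspanin, is the member among them. In Q5A the 10 had a median of -0.05 with 4 above 0, and 3 had an unadjusted p under 0.05. Of these, Sgk1, a kinase induced by glucocorticoids, had -1.57 ± 0.41 (SE; unadjusted p = 0.00023, adjusted p = 0.0663, edgeR) and Wee1, a kinase of the cell cycle, -0.54 ± 0.20 (SE; unadjusted p = 0.00769), so both lay on the night side. Tspan4 lay on the day side: its Q5A light libraries ran from 68.8 to 94.5 CPM (median 77.5) and its dark ones from 56.0 to 80.5 (median 66.0), with 6 of the 13 light libraries above the highest dark one. The difference was 0.26 ± 0.12 (SE; unadjusted p = 0.03, adjusted p = 0.366, edgeR), beside 0.33 in controls. Its median was higher by day in both arms, short of the threshold in Q5A.

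Many members lie opposite other genes, a property that the rule did not use. Of 142 members with a position in the GENCODE annotation of GRCm38, all but 31 (78.2%) had exons of another gene on the opposite strand, against 59.1% of the genes above the CPM floor and 35.8% of the genes at the dark end. For 52 members (36.6%) such exons covered 20% or more of the own exonic length, against 15.5% and 3.38%. The members were also the higher rows, with a median of 83.6 CPM in controls against 46.4 for all genes above the floor. The shares were not compared at like level. The genes were compact, with a median span of 13204 bases against 25085, and 9 of the 142 (6.34%) were annotated antisense RNAs, against 2.64%. With the counting option possibly reversed, rows that lie opposite another gene's exons may hold the reads of that gene.

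**Figure D5:**
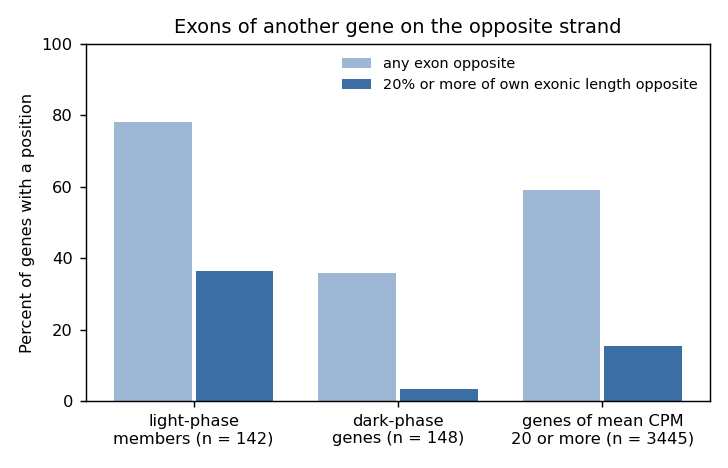
Percent of genes with a position (vertical axis) that have an exon of another gene on the opposite strand (light bars) or such exons over 20% or more of their own exonic length (dark bars), for 142 members, 148 genes at the dark end of the ranking and 3445 genes of mean CPM 20 or more. The members stand at 78.2% and 36.6%, above both other sets.

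The rows with the most reads show what such overlaps look like. Grin1os (chr2:25291220-25298925, plus strand) is an antisense RNA that shares 45.2% of its exonic length with Grin1, the obligatory subunit of NMDA receptors. Per kilobase of exon and over all libraries, the Grin1os row held 1494 CPM and the Grin1 row 10.2, a ratio of 147. The ratio was 139 for Fam219aos over Fam219a, 40.5 for Dnase2a over Mast1, 35.8 for Chrnb2 over Adar and 9.9 for Shc4 over Eid1. Of the 75 members whose opposite gene also has a row, 53 had the higher value per kilobase, and the median ratio was 4.78. The ratio could not be computed for Gapdhs. In 9 of the 75 the opposite gene is itself a member. Members had to pass the CPM floor and opposite genes did not, so the count favours the members. It was not made for other genes above the floor. Grin1 is a gene that neurons express widely, and its row was thus low beside that of the RNA named as its antisense. The light minus dark values of these rows in Q5A were small: Grin1os had 0.01 ± 0.12, Shc4 0.04 ± 0.11, Fam219aos 0.07 ± 0.12, Chrnb2 0.12 ± 0.11 and Dnase2a 0.17 ± 0.13, and in controls their differences were 0.20 to 0.29. The 9 annotated antisense RNAs had a median of 0.05 in Q5A (0.32 in controls), with 8 above 0 and 0 at an unadjusted p under 0.05.

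Genes without such an overlap had the higher median in Q5A. The 31 members with no exon opposite had a median of 0.23 in Q5A (0.51 in controls), and 11 of them had an unadjusted p under 0.05. The 59 with less than 20% of their exonic length opposite had 0.10, with 11, and the 52 with more had 0.11, with 5, where 5.23% of all genes tested and 6.91% of those above the CPM floor were higher at this threshold. The 31 were also the lower rows, with a median of 36.5 CPM against 105 and 129. The difference between these classes was not tested.

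Some members are neighbours. Within 20000 bases of each other lay 13 pairs, made of 25 members, and in 5 of the pairs the exons overlap on opposite strands, so that their rows may not be independent: Ankzf1 and Glb1l, Nprl3 and Mpg, Abhd1 and Preb, Idua and Slc26a1, and Loxl3 and Htra2. Among the pairs without shared exons are Tlr9 and Alas1, and Dot1l and Sf3a2, a splicing factor subunit 2736 bases further on the same strand.

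Between ZT0 and ZT12, the hours that did not rank the genes, no member passed the test in controls. The ZT0 minus ZT12 difference had a median of 0.02 over the members and -0.08 over all genes, and 81 of the 147 were above 0, against 42.1% of all genes. This contrast pools the control viruses, whose mean member levels relative to all genes went opposite ways. From ZT0 to ZT12 they fell from 0.787 to 0.526 in GFP and rose from 0.623 to 0.839 in H3.3, a split that was not tested. The GFP libraries at ZT12 include the library of highest gene-row share, at 0.07, and their median was 0.536. The test was edgeR's at an adjusted p under 0.05, where 0.679% of all genes were called higher and 0.589% lower. At an unadjusted p under 0.05, 10 were higher and 8 lower, against 7.41% and 10.8% of all genes, and DESeq2 called 0. Without the 3 libraries of the highest count in a single clone-named row, 3 of the 147 members were called lower, a share near the 1.72% of all genes. Without the 8 libraries of highest gene-row share the median was -0.03 over the members and -0.04 over all genes. Of the 147, 65 were then above 0. At an unadjusted p under 0.05 (edgeR), 7 were higher and 18 lower, where 2058 of 12769 genes passed in either direction. Cohort 1 alone had a median of -0.02 over the members and -0.05 over all genes, with 67 members above 0. In Q5A the same difference had a median of 0.11 over the members and -0.06 over all genes, with 109 of the 147 above 0 (44.4% of all genes), and no member called in edgeR (0% of all genes higher, 0.00754% lower) or DESeq2. At an unadjusted p under 0.05, 2 were higher and 1 lower, against 2.45% and 3.7% of all genes.

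The levels of the members in Q5A and control libraries were compared at the same hours. Q5A minus controls at ZT0 had a median of -0.04, with 63 of the 147 above 0 (50.2% of all genes). At ZT12 the median was -0.09, with 34 above 0 (48.6% of all genes). No member was called at either hour (edgeR, adjusted p under 0.05; of all genes tested 0% were called at ZT0, and 0.00754% higher and 0% lower at ZT12), and DESeq2 called 0. At an unadjusted p under 0.05, 0 members were higher and 4 lower at ZT0 (1.67% and 1.6% of all genes). At ZT12, 2 were higher and 11 lower (1.71% and 2.7%). The 2 libraries of highest gene-row share are both of ZT12, 1 GFP and 1 Q5A, and without the 8 such libraries the ZT12 median was -0.02 with 67 members above 0. H3.3 minus GFP over all hours had a median of -0.00, with 71 members above 0 (54% of all genes) and none called (edgeR, 0% of 9770 genes; DESeq2 0). At an unadjusted p under 0.05, 0 were higher and 2 lower, against 1.69% and 1.58%. This comparison averages the hours. The members' mean level relative to all genes was 0.787 in GFP and 0.623 in H3.3 at ZT0, and 0.526 and 0.839 at ZT12.

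A rhythm with a period of 24 h was last fitted over all 6 ZT in Q5A alone. No member passed (edgeR, adjusted p under 0.05), where 0.239% of 11706 genes did, and DESeq2 called 1 of the 147, where it called 0.726% of genes. Cohort 1 alone gave 14 members, where 8.34% of its genes were called. With cohort as a covariate, with no filter and without the 8 libraries of highest gene-row share 1 member was called each, where 0.273%, 0.574% and 0.559% of genes were. At an unadjusted p under 0.05, 25 members (17.0%) passed, against 14.5% of all genes, a share near that of all genes. The fitted peaks of all 147 members, most of which passed no threshold, are a description. They fell between ZT3 and ZT9, within the light phase, for 75 members (51.0%, against 25.4% of all genes), and between ZT21 and ZT3, around lights on, for 58 (39.5%, against 22.2%). The windows from ZT9 to ZT15 and from ZT15 to ZT21 held 8 and 6 members (5.44% and 4.08%, against 30.1% and 22.3%).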

How the data were processed

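The deposited values are raw counts per gene name, which the authors made from poly(A) RNA (Illumina Stranded mRNA Prep) by aligning to GRCm38 with STAR 2.7.11b and counting exonic reads with HTSeq 2.0.5, union mode, stranded option yes, 1 table per library. This option may be the reverse of the kit's read orientation. Entries of reads assigned to no gene were left out of library sizes. Of 111 libraries, mapped to 18 groups by their labels, Q5A ZT4 cohort 2 replicates 2 and 3 differed by less than sampling noise and were averaged, which left 110. A further 18 tables, which match no sample label, were not used here.

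Members, gene lists and tests were chosen with earlier results of these data known. All contrasts were fitted over all genes in edgeR 4.0.16 (R 4.3.3) by the quasi-likelihood F test with TMM scaling, filterByExpr (minimum count 10, minimum total count 15) and Benjamini-Hochberg adjustment, in 12 groups of arm and ZT without covariates, after tests on simulated data. GFP and H3.3 alone were fitted on control libraries in 12 groups of virus and ZT, H3.3 minus GFP had ZT as a factor, and the cosinor used Q5A alone. Differences are log2 with SE. DESeq2 1.42.0, other scalings, no filter, cohort, replicate block and left-out libraries were the alternatives. Named are the genes of largest t, smallest p, highest and lowest Q5A difference, highest CPM, list members and the edges of the list, and further members as examples of role groups, which were chosen after their values were seen. Overlaps were found with bedtools 2.31.1. P-values measure the spread between libraries. Gene-row reads per library set the counting error, which is largest for rows near 20 CPM.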

Additional observations from a re-analysis of the deposited data

Results flagged for a closer look

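In 126 groups of 1 virus, 1 ZT and 1 of 7 measures (the members' mean level and the 6 genes of smallest p in Q5A), the most extreme library was set against its group by Dixon's ratio, and 6 groups (4.76%) had a library far from the others. Chance alone marks about 5% of groups, so the number is near what chance gives. The members' mean log2 level was 6.44 in GFP ZT12 cohort 2 replicate 1, below its group, and 6.89 in Q5A ZT8 cohort 2 replicate 1. Mpeg1 stood at 34.8 CPM in H3.3 ZT16 cohort 2 replicate 1 and Tlr9 at 13.9 CPM in H3.3 ZT0 cohort 2 replicate 1. Son stood at 105 CPM in GFP ZT20 cohort 1 replicate 1 and at 341 CPM in Q5A ZT8 cohort 1 replicate 4. Of these libraries, the GFP one at ZT12 is also the library of highest gene-row share (5.63%).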

How the results depend on the processing

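The number of members called higher by day in Q5A was 0 in the edgeR analysis. It was 3 with DESeq2, 4 with Q5A libraries alone, 4 with cohort as a covariate, 17 in cohort 1 alone, 1 with no filter on low counts, 2 with the repeated library kept as 2 (0.098% of genes), and 7 without the 8 libraries of highest gene-row share, an alternative chosen after seeing the data. It was 0 with RLE size factors, 0 to 0 when the cohort 1 libraries of each replicate number were left out in turn, and 0 without the 3 libraries of highest count in a single clone-named row. With the replicate number as a block it was 3 (0.113% of genes). Replicate numbers did not pair the libraries: same-numbered libraries of a cohort had a mean correlation of 0.0239 over 240 pairs, against 0.0018 over 5254 others. The members called rhythmic in Q5A were 0 in the main analysis, 14 in cohort 1 alone (8.34% of genes), and 1 each with DESeq2 (0.726%), cohort as a covariate (0.273%), no filter (0.574%) and without the 8 libraries (0.559%). The 5 remaining comparisons gave 0 members called higher under every alternative run. The cause of these changes was not tested. The rule kept 90 of the 147 members on cohort 1 alone, 96 on GFP alone, 97 on H3.3 alone, 120 and 109 with a CPM floor of 10 and 40, 123 with TMM-scaled CPM, and 147 with a pseudocount of 0.5. At 673306 to 3375352 gene-row reads per library, a median standard error of 0.14 in Q5A leaves most members' differences within the error.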
